A study of Mus musculus with 36 samples.

Results

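Cilium transport and transition zone genes were described across mouse cells on their way from fibroblast to photoreceptor-like cell, and across rods of increasing age. The members were chosen by name: every table row whose symbol is Ift, Bbs or Nphp followed by a number, and 16 named partners of these proteins. The rule, which used no measured value, found 41 of the 15289 genes in the table, and 39 of these are the members described here. All 39 matched a gene of the GENCODE annotation of the GRCm38 mouse genome. By role they fall into 10 BBSome genes, 6 genes of intraflagellar transport complex A (IFT-A), 11 of complex B (IFT-B), 4 kinesin genes, 5 transition zone genes and 3 genes of lipidated cargo transport.

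A primary cilium is a microtubule rod under the cell membrane that cannot make its own proteins. Kinesin-2 motors carry IFT trains of complexes A and B towards the tip, dynein-2 brings them back, the BBSome (a coat named after Bardet-Biedl syndrome) moves membrane proteins out along them, and the transition zone at the base decides what may pass. In rods the outer segment is an enlarged cilium and the connecting cilium is a long transition zone, so all the protein of the light-sensing discs crosses it. Lipid-tailed proteins such as phosphodiesterase travel on carriers that the GTPase Arl3 empties, and defects in many of these genes cause retinal degeneration.

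Bulk RNA sequencing values of 33 libraries were used. The cultured groups of 3 libraries each were mouse embryonic fibroblasts (MEF) at passage 2, reprogramming intermediates at day 5 and at day 8, and the end product at day 11, chemically induced photoreceptor-like cells (CiPC), made from the MEF with 5 chemicals in induction medium. The other groups were rods isolated at postnatal day 2 (P2, 2 libraries), P4 (2), P5 (3), P6 (3), P10 (4), P14 (3) and P28 (4). All groups, MEF and rods included, have the genotype Nrl-GFP, in which the promoter of the rod factor Nrl drives green fluorescent protein, and the labels say that cells were sorted by reporter expression. The P5 rods are of the series of the cultured cells. The other rods were analysed together with wild type samples of an older series, and 2 of their libraries, P10 replicate 3 and P14 replicate 3, list no older sample. The labels of 3 samples of P3 rods match no column, and they were not analysed here. Whether replicates were separate cultures or animals is not in the labels, and the p-values measure only the spread between these libraries, which may be technical.

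The values are normalised CPM, a read count scaled to library size, made by the submitters, and the read depth behind them is unknown. They summed to between 719752 and 2277240 per library, lowest at P2 and highest at P28. The summed level of 7 rod markers, Nrl and Nr2e3 among them, was 2.75 to 3.57 CPM in MEF, 168 to 170.4 in CiPC, 2937 to 3095 in P5 rods and 115651 to 146274 in P28 rods, and all 7 were at 1 CPM or more in CiPC and in rods of every age. Markers of other cells were also present: 10 cell cycle genes summed to 396 to 411 CPM in MEF, 1402 to 1604 in CiPC and 45.9 to 49.8 in P5 rods. For 8 Müller glia genes the sums were 2846 to 2928 CPM in MEF, 4358 to 4646 in CiPC and 199 to 222 in P5 rods. Of these genes, Vim alone had a mean of 2685 CPM in MEF and 2515 in CiPC. The 8 fibroblast markers summed to 8330 to 9914 CPM in MEF, 45952 to 48008 at day 5 and 99.1 to 125 in CiPC, and the 8 macrophage markers to 239 to 266 in MEF, 5.81 to 7.26 at day 5 and 27.96 to 32.96 in CiPC. The 8 retinal progenitor markers summed to 325 to 349 CPM in MEF, 1332 to 1536 in CiPC and 523 to 562 in P5 rods. In P2 rods their sum was 1668 to 1935 CPM, and in P28 rods 12.3 to 24.0. Of 15 markers of motile multiciliated cells, which also use IFT, 8 were in the table. They summed to 4.31 to 5.53 CPM in MEF, 21 to 25.7 in CiPC and 31.9 to 35.2 in P5 rods, without Foxj1 to 3.53 to 4.28, 10.3 to 12.6 and 28.4 to 32.0, and Pifo was at 0 in all cultured groups. The part of these other cells in the values below was not tested.

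The members' CPM were low in MEF and high in older rods. Their summed level was 769.8 to 789.9 CPM in MEF, 979 to 988 at day 5, 896 to 904 at day 8 and 1060.4 to 1123 in CiPC. It was 2777 to 2904.5 in P5 rods and 7490.9 to 8162 in P28 rods, so every cultured library lay below every rod library. As a share of the summed CPM of a library, the members made up 0.0749% to 0.0767% in MEF, 0.129% to 0.136% in CiPC, 0.423% to 0.432% at P2 and 0.358% to 0.392% at P28. On this scale P28 rods lay below all P2, P4, P6, P10 and P14 libraries. On the deposited CPM scale, not that of shares, P28 rods had the highest group mean for 23 of the 39 members and P14 rods for 8. On the same scale MEF had the lowest mean for 24. The matching counts over all genes were not made. The P14 count rests in part on replicate 3. At P14, replicates 1, 2 and 3 measured 1415, 1067 and 5125 CPM in Rpgrip1 and 36.1, 38.4 and 87.3 in Ift88. In bulk RNA, more cells of a type and more RNA per cell cannot be told apart.

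**Figure D1:**
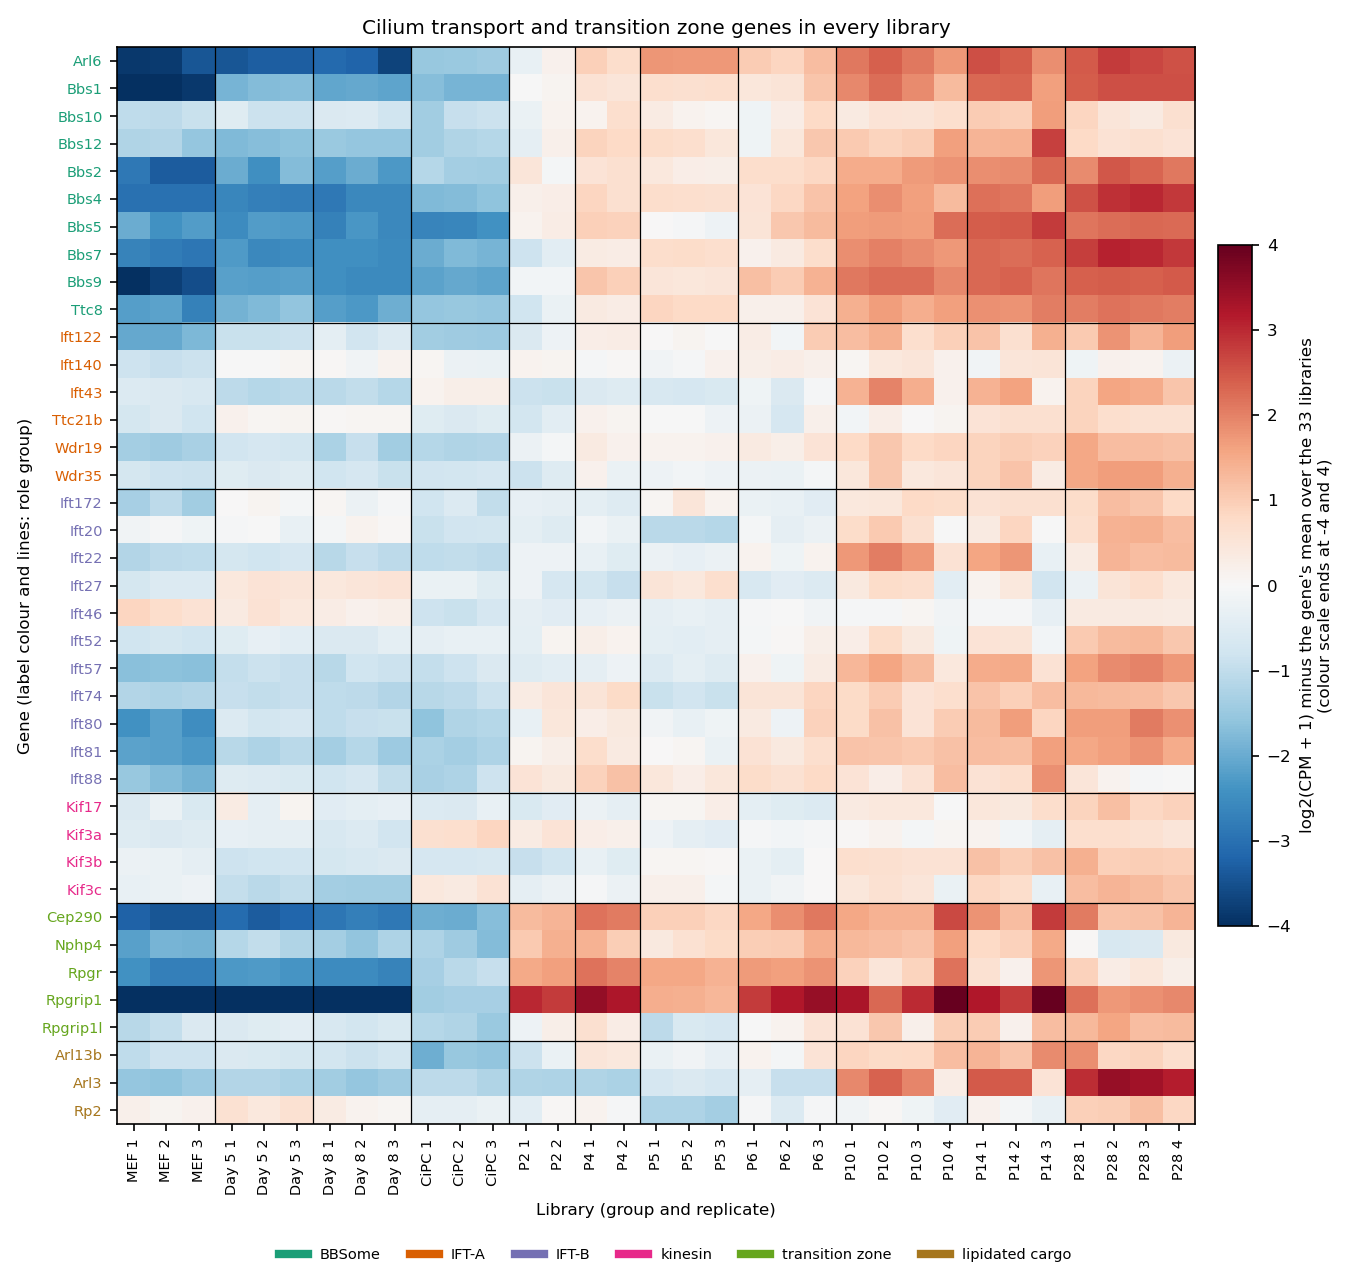
Each row is 1 of the 39 members, ordered by role, and each column 1 of the 33 libraries, ordered by group; colour gives log2(CPM + 1) minus that gene's mean over all libraries. Most BBSome rows run from low in the cultured libraries to high in P28 rods, but Bbs5, Bbs10 and Bbs12 are lower at P28 than at P14. Rpgr and Nphp4 are lower at P28 than at P2.

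Promoters of the members were read because RFX factors, which switch on ciliary genes in many animals, bind a paired motif called the X-box. RefSeq promoters on GRCm38.p6, from 250 bases before to 50 after each start, were found for 36 of the 39 members, as 40 windows of 300 bases. Neither Ift122, Ift80 nor Ift81 had an entry. The core of the X-box, GTTGCC on either strand, stood in 14 of the 40 windows (35%) against 12.51% of all 32851 RefSeq promoters. That background was not limited to the 15289 genes with CPM values. A whole X-box, searched on both strands with a looser pattern that allows other letters in the core, so that it may or may not contain GTTGCC, followed after 1 to 3 bases by its inverted partner, stood in 10 (25%) against 9.248%. The site of the photoreceptor factors Crx and Otx2, TAATCC on either strand, stood in 2 (5%, Bbs1 and Rpgrip1) against 7.062%. Counted by gene, 19 of 36 members (52.78%) had a core or a whole X-box, against 21.18% of the 27025 genes with RefSeq promoters. These were 4 of 4 kinesin genes, 4 of 5 IFT-A, 5 of 9 IFT-B and 4 of 10 BBSome genes, 1 of 3 cargo genes and 1 of 5 transition zone genes. A match is a description of the letters and not a binding site. Of the promoters below, those of Bbs7, Ift57 and Wdr19 are shown because each holds a whole X-box and comes from another complex, and that of Rpgrip1 because this gene differed most between CiPC and MEF. Each line gives the 250 bases before the start, 5′ to 3′ on the gene's strand, with the X-box in capitals, or in Rpgrip1 the Crx and Otx2 site, which lies there on the opposite strand and reads GGATTA.
Bbs7, chr3:36613390-36613639, minus strand: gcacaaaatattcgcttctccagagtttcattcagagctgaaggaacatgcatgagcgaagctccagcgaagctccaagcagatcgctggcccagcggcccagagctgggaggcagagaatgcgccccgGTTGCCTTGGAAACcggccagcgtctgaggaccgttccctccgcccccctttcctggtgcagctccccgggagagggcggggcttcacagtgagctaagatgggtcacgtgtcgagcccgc
Ift57, chr16:49699044-49699293, plus strand: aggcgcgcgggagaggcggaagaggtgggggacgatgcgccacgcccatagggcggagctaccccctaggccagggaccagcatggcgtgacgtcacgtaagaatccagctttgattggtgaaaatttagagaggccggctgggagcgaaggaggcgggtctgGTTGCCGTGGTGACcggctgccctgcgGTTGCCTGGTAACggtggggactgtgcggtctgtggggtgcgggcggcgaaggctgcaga
Wdr19, chr5:65199446-65199695, plus strand: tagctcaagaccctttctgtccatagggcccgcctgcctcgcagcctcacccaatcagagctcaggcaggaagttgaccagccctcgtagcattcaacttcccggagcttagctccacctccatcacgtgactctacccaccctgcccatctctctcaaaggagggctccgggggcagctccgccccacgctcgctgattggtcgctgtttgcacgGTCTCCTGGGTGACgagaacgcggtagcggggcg
Rpgrip1, chr14:52110653-52110902, plus strand: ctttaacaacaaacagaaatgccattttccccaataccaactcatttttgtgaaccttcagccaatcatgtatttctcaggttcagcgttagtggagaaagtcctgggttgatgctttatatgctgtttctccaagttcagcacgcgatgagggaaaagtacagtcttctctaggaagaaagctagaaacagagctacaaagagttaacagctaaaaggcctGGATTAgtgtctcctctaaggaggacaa
The X-box begins 121 bases before the start in Bbs7, 34 before in Wdr19, and twin matches begin 87 and 60 bases before it in Ift57. The Rpgrip1 site begins 28 bases before the start. These starts are those of RefSeq, and for Rpgrip1, Ift57 and Bbs7 the GENCODE gene begins farther upstream. By GENCODE, the Rpgrip1 site and the nearer Ift57 match lie inside the gene.

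Between MEF and day 5, the first step of reprogramming, 9 of the 38 members tested rose and 0 fell. A gene is called here when limma's adjusted p is under 0.05 and the fold on log2(CPM + 1) is at least 2, and by this rule 14.7% of all genes rose and 13.7% fell. The members' median log2 change was 0.35 against 0.01 for all genes. The risers were 5 IFT-B genes (Ift172, Ift27, Ift80, Ift81 and Ift88), 3 BBSome genes (Bbs1, Bbs2 and Bbs9) and the IFT-A gene Ift122, and 0 of the 5 transition zone genes passed. Kif17 was at or above 1 CPM in too few of these libraries to be tested. Under quantile normalisation 4 of the 9 met the threshold. At this step all 8 fibroblast markers rose and all 8 macrophage markers fell, and their part in the members' changes was not tested.

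Between day 5 and day 8 none of the 38 members tested was called by limma, where 3.61% of all genes rose and 3.01% fell. Without the 2-fold limit, 3 members were higher and 12 lower at adjusted p under 0.05, beside 25.6% and 23.9% of all genes. At an unadjusted p under 0.05 the counts were 3 and 15, and the shares of all genes at that limit were not computed. The members' median change was -0.13 against 0.00 for all genes.

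From day 8 to CiPC, 6 of 38 members rose and 1 fell, beside 15.2% of all genes that rose and 16.6% that fell. The risers came from 4 roles: Rpgrip1 and Rpgr (transition zone), Kif3a and Kif3c (kinesins), Arl6 (BBSome recruitment) and Ift43 (IFT-A), and the IFT-B gene Ift46 fell. The median over the members was 0.06, close to -0.04 for all genes. Ift46 no longer met the threshold without CiPC replicate 2, at -0.99.

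Over the whole course, CiPC against MEF, 10 of 38 members rose and 1 fell, beside 16.5% and 17.2% of all genes. The members' median change was 0.51, against -0.05 for all genes. By role, 5 of 10 BBSome genes rose (Arl6, Bbs1, Bbs2, Bbs4 and Bbs9) and 3 of 5 transition zone genes (Rpgrip1, Rpgr and Cep290). Kif3a and Ift80 were the other risers, Ift46 fell, and 0 of the 6 IFT-A genes and 0 of the 3 cargo genes passed. Without the 2-fold limit the counts were 24 higher and 7 lower, beside 37.6% and 42% of all genes. With all libraries scaled to the same sum 17 rose, beside 22.5% of all genes.

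In P5 rods against the same MEF libraries, 22 of 38 members were higher and 2 lower, beside 24.5% and 30.5% of all genes, with a median of 1.34 against -0.09. All 10 BBSome genes were higher, with a median of 3.47, as were 4 of 5 transition zone genes, 6 of 11 IFT-B and 2 of 6 IFT-A genes. Ift46 and Rp2 were lower, and 0 of 3 tested kinesin genes passed. This comparison and that of CiPC share the MEF libraries. With the P4 and P6 rods of the older series in place of P5, neither Ift46 (-0.89) nor Rp2 (-0.25) met the threshold, and Ift27 lay at -0.09 instead of 1.13.

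Set directly against P5 rods, CiPC were lower for 21 of 38 members and higher for 1, beside 18.5% of all genes lower and 24.8% higher. The members' median difference was -1.17 and that of all genes -0.03. All 10 BBSome genes were lower in CiPC, with a median of -2.41, as were 4 of 5 transition zone genes (Cep290, Rpgrip1, Rpgr and Nphp4), 4 of 11 IFT-B genes, 2 of 6 IFT-A genes and Arl13b. Kif3a was the member called higher, and it missed the threshold without CiPC replicate 3 (1.00) and with libraries scaled to the same sum (0.94). Of the members not called, the groups overlapped in Ift140 and Ift74. Marker levels of cell cycle, Müller glia and retinal progenitors, given above, also differed between these groups. All 10 cell cycle markers, 7 of 7 tested glia markers and 5 of 8 progenitor markers were higher in CiPC, and 1 progenitor marker was lower. Fibroblast markers (6 of 8) and macrophage markers (6 of 6 tested) were also higher in CiPC. Lower in CiPC were 6 of 7 rod markers (median -4.03), 7 of 8 bipolar cell markers and 4 of 6 tested cone markers. Of 6 tested multiciliated markers 1 was higher and 2 were lower. Their part was not tested.

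**Figure D2:**
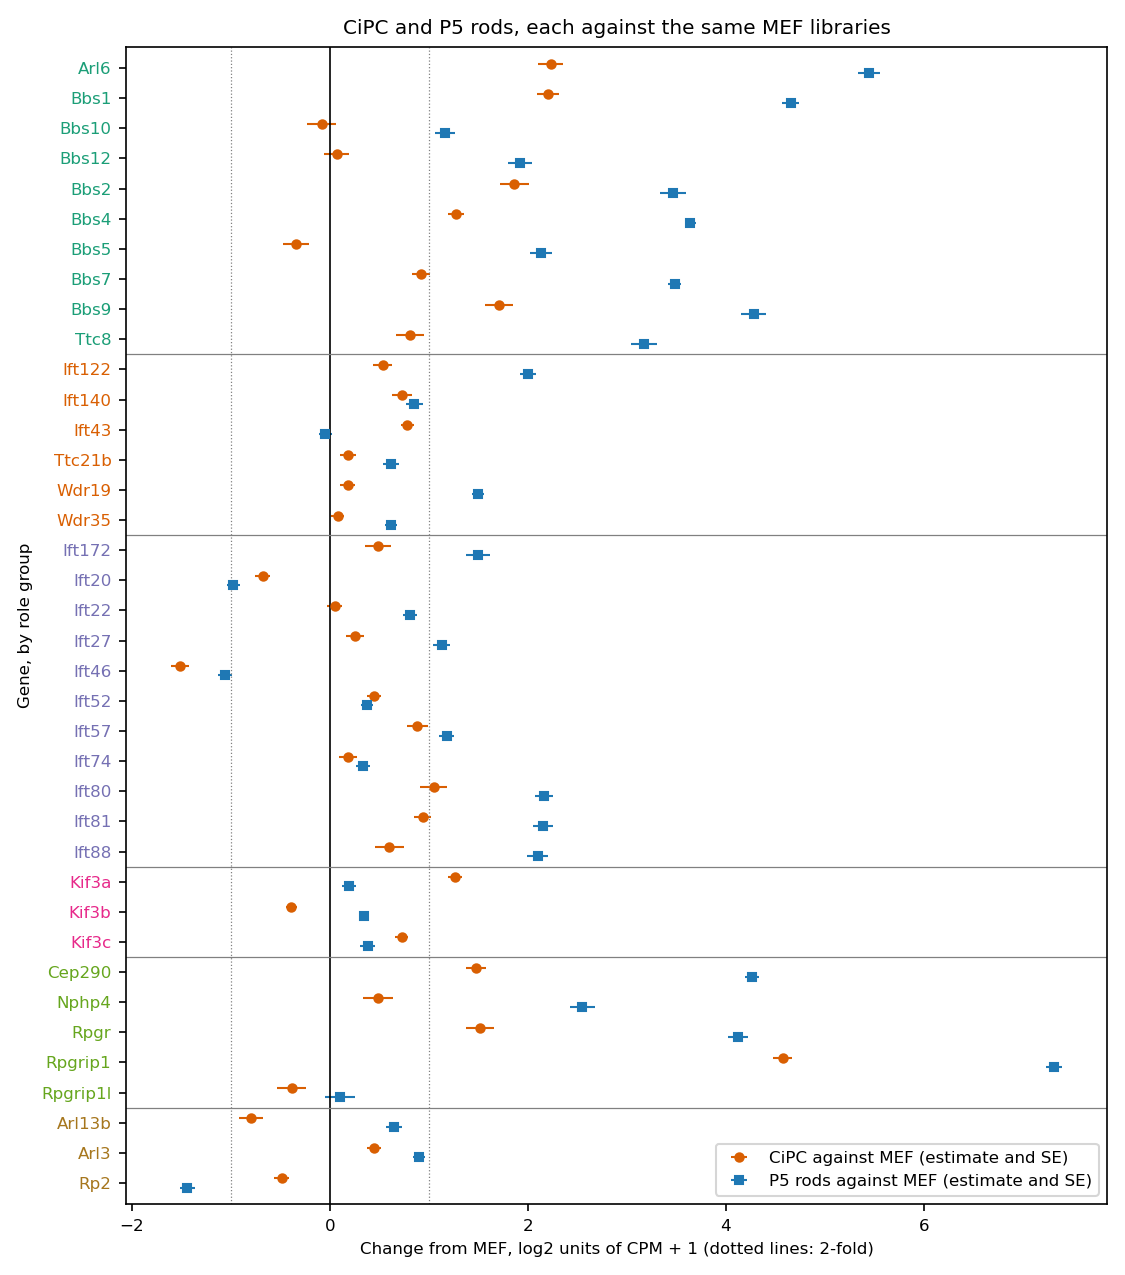
The log2(CPM + 1) difference from MEF, with its standard error, is shown for CiPC (circles) and P5 rods (squares) for the 38 members tested; dotted lines mark a 2-fold difference. The BBSome squares all lie to the right of their circles, whereas several IFT-A and IFT-B pairs lie close together.

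Rpgrip1 (chr14:52110704-52163546 on GRCm38), which anchors Rpgr in the connecting cilium, differed from MEF more than any other member, in CiPC and in P5 rods. Its level was 1.57, 1.8 and 1.31 CPM in the MEF libraries, 0.974, 1.39 and 1.17 at day 5, 1.90, 1.51 and 1.44 at day 8, and 58.2, 60.9 and 60.6 in CiPC. MEF overlapped day 5 and day 8, day 8 lay above day 5, and every CiPC library lay above all of them. The change from day 8 to CiPC was 4.54 ± 0.099 (log2, SE; limma, adjusted p = 1.22e-09) and that from MEF 4.58 ± 0.098 (adjusted p = 9.35e-10). P5 rods held 425, 409 and 388 CPM, so CiPC reached 14.7% of the P5 mean, a difference of -2.74 ± 0.057 (adjusted p = 1.35e-10). The gene overlaps Supt16 on the opposite strand, and whether the counting used strand is not given in the sources used here.

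Rpgr (chrX:10073621-10216920), the GTPase regulator that Rpgrip1 holds, measured 4.17, 3.22 and 3.15 CPM in MEF, 4.71, 4.81 and 4.44 at day 5, 3.85, 3.86 and 3.38 at day 8, 9.97, 12.2 and 13.6 in CiPC and 80.0, 79.9 and 71.9 in P5 rods. CiPC lay above every earlier cultured library and below every P5 library. The rise from MEF was 1.52 ± 0.14 (limma, adjusted p = 9.43e-06) and the difference from P5 was -2.60 ± 0.11, with CiPC at 15.5% of the P5 mean. Rpgr overlaps Srpx on the same strand, so reads of the pair may be shared.

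Cep290 (chr10:100487558-100574840) builds the links between microtubules and membrane in the transition zone. Its level was 11.9, 10.4 and 10.3 CPM in MEF, 13.3, 10.9 and 12.4 at day 5, 15.4, 17.2 and 15.7 at day 8, and 30.4, 29.4 and 36.0 in CiPC. At day 8 it was already above all MEF and day 5 libraries, although that step (0.38 ± 0.097, limma adjusted p = 0.00978) was under 2-fold. CiPC exceeded MEF by 1.47 ± 0.10 and differed from P5 rods, at 235, 231 and 213 CPM, by -2.79 ± 0.084 (adjusted p = 1.28e-09).

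Nphp4 encodes a nephrocystin of the base of the cilium. It differed from P5 rods: 7.35, 6.31 and 4.91 CPM in CiPC against 24.7, 29.4 and 32.7 (-2.06 ± 0.15), with MEF at 3.40, 4.50 and 4.39.

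**Figure D3:**
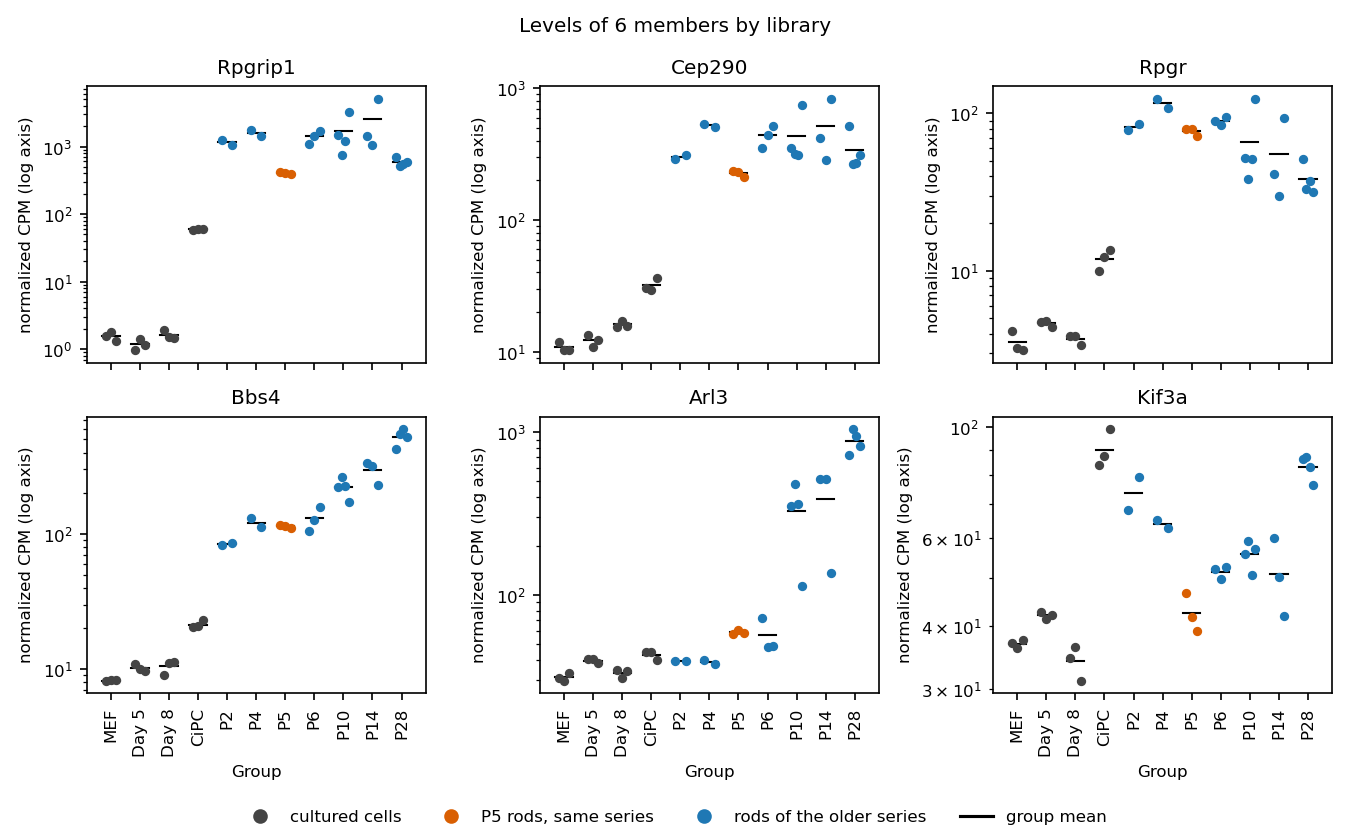
CPM per library on a log axis for Rpgrip1, Cep290, Rpgr, Bbs4, Arl3 and Kif3a; points are libraries and bars group means, in grey for cultured cells, orange for P5 rods and blue for the other rods. Rpgrip1 stays at 1.90 CPM or less until day 8 and lies at 58.2 or more in CiPC, and 1 point each at P10 and P14 stands apart in Rpgrip1, Cep290, Rpgr and Arl3.

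Arl6 (chr16:59612949-59639391), the GTPase that brings the BBSome to membranes, rose at the last step. It measured 5.98, 6.09 and 8.57 CPM in MEF, 8.48, 9.36 and 9.24 at day 5, 10.7, 10.0 and 6.72 at day 8, and 34.8, 35.3 and 36.9 in CiPC. The first 3 groups overlapped, and CiPC stood clear of them by 1.88 ± 0.15 over day 8 (limma, adjusted p = 5.28e-06). P5 rods held 347, 333 and 339.5 CPM, which left CiPC at 10.5% of their mean, the lowest percentage of the P5 mean of any member (-3.22 ± 0.054). This rank belongs to the P5 group, in which Arl6 lay above every P4 and P6 library. Of the P2 mean, CiPC reached 36.3% in Arl6 and 5.17% in Rpgrip1.

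Bbs1 (chr19:4886878-4906628), a core BBSome subunit, had risen by day 5. Its 2.45, 2.79 and 3.26 CPM in MEF compare with 16.1, 17.3 and 18 at day 5, 13.6, 13.7 and 13.2 at day 8 and 17.9, 15.9 and 15.9 in CiPC. Every library after MEF lay far above it, and day 5 and CiPC overlapped. The step to day 5 was 2.25 ± 0.10 (limma, adjusted p = 3.19e-08), the largest of any member there, and P5 rods stood at 95.6, 93.7 and 96.2 CPM. Bbs9, another core subunit, was also higher by day 5: 3.46, 4.58 and 5.56 CPM in MEF, 16.0, 15.6 and 15.9 at day 5, 12.9, 12.2 and 12 at day 8, 16.2, 17.5 and 16.8 in CiPC and 105, 103 and 107 in P5 rods. Day 5 was higher than MEF by 1.62 ± 0.13 and CiPC differed from P5 by -2.57 ± 0.064 (adjusted p = 3.73e-10).

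Bbs4 (chr9:59321990-59353508), the subunit that links the BBSome to centriolar satellites, was at 8.21, 8.25 and 8.27 CPM in MEF, 10.8, 10.0 and 9.77 at day 5, 9.14, 11.2 and 11.2 at day 8 and 20.4, 20.9 and 23.0 in CiPC. Its 3 CiPC libraries did not overlap any earlier one. The rise over MEF was 1.27 ± 0.084 (limma, adjusted p = 9.91e-07), and the difference from P5 rods, at 117, 115 and 112 CPM, was -2.37 ± 0.068. Bbs2, a core subunit, rose from 4.99, 3.32 and 3.33 CPM in MEF to 18.5, 15.8 and 15.4 in CiPC (1.86 ± 0.15), with P5 rods at 56.9, 50.6 and 49.7. Bbs5, which has a lipid-binding fold, did not pass: 9.38, 6.79 and 7.83 CPM in MEF, 5.69, 5.75 and 6.77 in CiPC and 41.0, 39.0 and 34.9 in P5 rods. CiPC lay below MEF in each library, by -0.34 ± 0.13 (adjusted p = 0.0358), under the 2-fold limit. Over the 10 genes, CiPC means ranged from 10.5% of the P5 mean in Arl6 to 35.4% in Bbs10, 1 of the chaperonin-like genes that assemble the BBSome.

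The IFT-A genes, which serve the return journey and the entry of membrane proteins, were mostly not called between neighbouring stages of culture, but Ift122 rose by day 5 and Ift43 at the last step. At day 5 their median change was 0.72, and 5 of the 6 were higher at adjusted p under 0.05 without the 2-fold limit, as were 40.7% of all genes. Ift122, a core subunit, measured 15.04, 15.2 and 18.3 CPM in MEF, 34.6, 34.6 and 35.8 at day 5 and 24.3, 23.7 and 23.3 in CiPC, with a change of 1.07 ± 0.082 at day 5 (limma, adjusted p = 1.2e-06). The 3 groups did not overlap. Ift140 (chr17:25016085-25099495), a core subunit, passed in 0 of the 9 comparisons by limma. It measured 17.7, 16.5 and 17.1 CPM in MEF, 31.8, 31.6 and 33.7 at day 5, 33, 28.9 and 35.7 at day 8, 33.8, 27.1 and 26.7 in CiPC and 28.9, 30.7 and 36.0 in P5 rods. MEF lay below all of these, the later groups overlapped, and the difference of day 5 from MEF was 0.88 ± 0.062 (adjusted p = 6.93e-07), under 2-fold. Ift43, a small subunit, measured 15.7, 16.8 and 14.9 CPM at day 8 and 37.4, 40.0 and 40.2 in CiPC (1.26 ± 0.079, adjusted p = 9.87e-07). CiPC also lay above the 21.5, 21.2 and 22.2 CPM of P5 rods, by 0.83 ± 0.071, which is under 2-fold.

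Of the 5 IFT-B genes that rose by day 5, Ift80 alone met the threshold in CiPC against MEF; whether the 2 changes differ was not tested. Ift88 (chr14:57424062-57517936), a core subunit without which cilia do not form, measured 7.62, 6.47 and 5.73 CPM in MEF, 16.3, 15.9 and 15.2 at day 5, 13.3, 14.5 and 11.7 at day 8 and 9.17, 9.63 and 13.0 in CiPC. Day 5 was above every MEF library and above every CiPC library, and CiPC and day 8 overlapped. The step to day 5 was 1.15 ± 0.10 (limma, adjusted p = 4.06e-06), while CiPC differed from MEF by 0.60 ± 0.15 (adjusted p = 0.00491). Ift172, the largest IFT-B subunit, likewise measured 19.6, 24.1 and 18.9 CPM in MEF, 52.0, 55.5 and 48.0 at day 5 and 29.2, 34.6 and 25.3 in CiPC (1.28 ± 0.095 at day 5). Day 5 stood clear of both. Ift80 had 11.0, 13.3 and 10.6 CPM in MEF, 43.5, 38.3 and 39.9 at day 5, 31.1, 33 and 34.3 at day 8 and 20.3, 27.4 and 28.2 in CiPC. The 4 groups did not overlap. The change from MEF to CiPC was 1.05 ± 0.14, and it missed the threshold without MEF replicate 3 and without CiPC replicate 2 or 3, at 0.97 to 0.99.

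Ift46 (chr9:44767908-44793447), an IFT-B subunit, went the other way. It measured 90.4, 80.5 and 73.8 CPM in MEF, 63.6, 74.2 and 65.7 at day 5, 60.7, 55.9 and 57.4 at day 8, 27.2, 26.0 and 30.3 in CiPC and 37.9, 39.5 and 38.2 in P5 rods. MEF and day 5 overlapped, and CiPC lay below every other group shown. Its change from MEF to CiPC was -1.52 ± 0.09 (limma, adjusted p = 4.99e-07). Of the 39 members, 1 had its highest group mean in MEF when the rods were counted too, and it was Ift46. Ift20, which works at the Golgi, also stood lower in CiPC (20.2, 21.9 and 22.5 CPM) than in MEF (34.4, 36.8 and 33.9), by -0.68 ± 0.075, under 2-fold.

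Among the kinesins, Kif3a (chr11:53567379-53601967), the shared motor subunit of kinesin-2, measured 37.1, 36.1 and 37.4 CPM in MEF, 42.7, 41.4 and 42.1 at day 5, 34.5, 36.4 and 31.1 at day 8, 84.1, 87.3 and 98.9 in CiPC and 46.6, 41.8 and 39.0 in P5 rods. CiPC stood above every other library of these groups. The rise from day 8 was 1.38 ± 0.087 (limma, adjusted p = 1.04e-06) and the difference from P5 rods 1.07 ± 0.087. Kif3c, an alternative partner of Kif3a that neurons express, went from 74.7, 77.2 and 79.8 CPM in MEF to 35.4, 34.8 and 34.5 at day 8 and 126, 120.0 and 139.8 in CiPC (1.85 ± 0.071 over day 8, adjusted p = 3.95e-08). Kif3b, the usual partner, showed the reverse order, 84.6, 83.9 and 78.4 CPM in MEF against 62.2, 61.9 and 63.5 in CiPC (-0.39 ± 0.056), a change under 2-fold. Kif17 (chr4:138250435-138301967), a separate kinesin-2 of cilia and dendrites that overlaps Sh2d5 on the same strand, was near the limit of detection: no library of MEF, CiPC or day 8 reached 1 CPM, and P5 rods held 0.904, 0.909 and 1.17.

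The cargo genes passed in neither the comparison of CiPC with MEF nor that with day 8. Arl3 (chr19:46531096-46573198) measured 31, 29.7 and 33 CPM in MEF, 44.3, 44.6 and 39.9 in CiPC and 57.8, 61 and 58.1 in P5 rods, so the groups were ordered without overlap, each difference being under 2-fold. Arl13b (chr16:62793685-62847040), which activates Arl3, measured 21.2, 24.2 and 24.3 CPM in MEF, then 10.6, 14.5 and 14.0 in CiPC, against 36.2, 40.0 and 34.8 in P5 rods. CiPC held the lowest values, and differed from P5 by -1.45 ± 0.12 (limma, adjusted p = 1.81e-06). Rp2 (chrX:20364481-20405653), which switches Arl3 off, measured in MEF 29.0, 26.9 and 28.4 CPM, 19.2, 19.3 and 20.8 in CiPC and 10.1, 9.98 and 9.09 in P5 rods. Here P5 rods were lowest, and differed from MEF by -1.44 ± 0.076 (adjusted p = 5.2e-08).

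With age, most members increased in rods on the CPM scale as deposited. A slope on log2 postnatal day was fitted over the 18 rod libraries other than P5 and is given as the change from P2 to P28. By it 28 of 39 members rose and 2 fell, beside 21.8% of all genes that rose and 32.9% that fell. The members' median change was 1.63 and that of all genes -0.30. With all libraries scaled to the same sum, 6 members rose (Arl3, Bbs7, Ttc8, Bbs4, Bbs1 and Arl6) and 7 fell (Rpgr, Nphp4, Rpgrip1, Ift88, Cep290, Ift140 and Kif3a), beside 5.27% and 64.4% of all genes, with medians of 0.03 and -1.54. Of the 28 risers, 7 had negative values on that scale: Ift27, Ift52, Ift81, Rp2, Rpgrip1l, Ttc21b and Wdr19. All 8 retinal progenitor markers also fell with age, and their part was not tested. The values that follow are on the deposited scale unless said otherwise. There, risers were 8 of 10 BBSome genes, 5 of 6 IFT-A, 8 of 11 IFT-B, 3 of 4 kinesin and 3 of 3 cargo genes. The 5 transition zone genes split, with Rpgrip1l rising (but at -0.26 with libraries scaled to the same sum) and Rpgr and Nphp4 falling on both scales.

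Arl3 rose most, by 5.20 ± 0.56 (limma, adjusted p = 7.47e-08), and by 3.59 with libraries scaled to the same sum. It measured 39.4 and 39.0 CPM at P2, 40.0 and 37.8 at P4, 72.1, 48.1 and 48.8 at P6, 351, 478, 362 and 113 at P10, 512, 512 and 136 at P14, and 722, 1039, 949 and 822 at P28. Libraries up to P6 lay below all older ones, and P28 lay above all others. Between P6 and P10 it rose by 2.36 ± 0.42 (adjusted p = 0.0029) and between P10 and P28 by 1.60 ± 0.38 (adjusted p = 0.00535). Rp2 was at 18.3 and 26.0 CPM at P2, 22.5, 26.1, 22.2 and 18.1 at P10 and 49.6, 50.5, 59.0 and 45.1 at P28, where it stood above all younger rods. Over P2 to P14 alone the change of Rp2 was 0.02, against 1.10 over the whole range and -0.47 with libraries scaled to the same sum. Arl13b went from 23.6 and 36.5 CPM at P2 to 162, 78.4, 81.1 and 70.5 at P28, with a slope of 1.64 ± 0.33, or 0.04 with libraries scaled to the same sum.

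Among BBSome genes, Bbs7 (chr3:36573142-36613477), a core subunit, rose by 3.79 ± 0.23 (limma, adjusted p = 9.74e-11), and by 2.17 with libraries scaled to the same sum. It measured 47.5 and 63.7 CPM at P2, 108 and 105 at P4, 97.1, 111 and 142 at P6, 316, 353, 323 and 289 at P10, 426, 407 and 447 at P14 and 588, 728, 705 and 623 at P28. From P6 on the age groups did not overlap. Bbs4 went from 82.5 and 85.8 CPM at P2 to 427, 548, 593 and 521 at P28 (2.75 ± 0.21), and Ttc8, also a core subunit, from 44.0 and 63.0 to 322, 348, 335 and 319 (2.81 ± 0.24). In both, all P28 libraries stood above all P2 libraries. The chaperonin-like Bbs10 and Bbs12 were the BBSome genes that did not pass.

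In the IFT complexes, Ift57, an outer subunit of IFT-B, went from 21.2 and 22.6 CPM at P2 to 96.8, 117, 125 and 105 at P28, a rise of 2.54 ± 0.28 (limma, adjusted p = 1.1e-07). Ift43 went from 18.5 and 18.1 to 64.1, 104, 96.5 and 75.5 (2.45 ± 0.43). In both genes no P28 library reached down to P2. Ift140 and Ift88 did not follow: Ift140 held 35.6 and 34.5 CPM at P2 and 28.2, 36.4, 35 and 27.1 at P28 (-0.08 ± 0.19, adjusted p = 0.728), and Ift88 held 35.6 and 31.5 at P2 and 33.8, 26.4, 23.3 and 23.7 at P28 (-0.43 ± 0.32, adjusted p = 0.244). Their P2 and P28 ranges overlapped. With libraries scaled to the same sum both were called lower, at -1.65 and -1.99, while Ift57 (0.95) and Ift43 (0.86) fell short of 2-fold. Of the kinesins, Kif3b rose by 2.16 ± 0.21 to 272, 196, 200.3 and 194 CPM at P28, and Kif17 by 1.68 ± 0.21, from 0.192 and 0.329 to 2.32, 3.21, 2.22 and 2.43 CPM. Kif3a, at 68.2 and 79.5 CPM at P2 and 86.3, 87.2, 83.2 and 76.7 at P28, did not pass (0.21 ± 0.23, adjusted p = 0.436). With libraries scaled to the same sum Kif3a was called lower at -1.39, and Kif3b (0.55) and Kif17 (0.85) were not called.

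Both members that fell with age on the deposited scale were transition zone genes. Rpgr went from 78.3 and 85.6 CPM at P2 and 89.0, 84.9 and 95.1 at P6 to 51.4, 33.2, 37.2 and 31.8 at P28 (-1.51 ± 0.37 on the log2(CPM + 1) scale; limma, adjusted p = 0.00107), and Nphp4 from 39.8 and 52.0 to 19.5, 11.6, 12.2 and 25.1 (-1.38 ± 0.37, adjusted p = 0.00267). In both genes the P28 libraries lay below the P2 libraries. Over P2 to P14 alone, Nphp4 was at -0.04 and Rpgr at -0.98, and neither passed. Rpgrip1 had 1257 and 1063 CPM at P2, 1754 and 1439.8 at P4, 1487, 761, 1216 and 3276 at P10, 1415, 1067 and 5125 at P14 and 709, 514, 545 and 589 at P28. All P28 libraries lay below all younger ones other than P5. Its slope was -0.95 ± 0.57 (adjusted p = 0.141), but it was called lower under quantile normalisation (-3.51), with libraries scaled to the same sum (-2.58), with age in days (-1.29), over libraries with an older sample (-1.18) and without P14 replicate 3 (-1.17). Over P2 to P14 alone it was 0.57. Between P10 and P28 it fell by 1.32 ± 0.37 (adjusted p = 0.0124). Cep290 showed no trend that passed: 292 and 311 CPM at P2 and 513, 265, 270.3 and 311 at P28 (-0.12 ± 0.36, adjusted p = 0.777), although it was called lower under quantile normalisation, at -1.52, and with libraries scaled to the same sum, at -1.74.

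**Figure D4:**
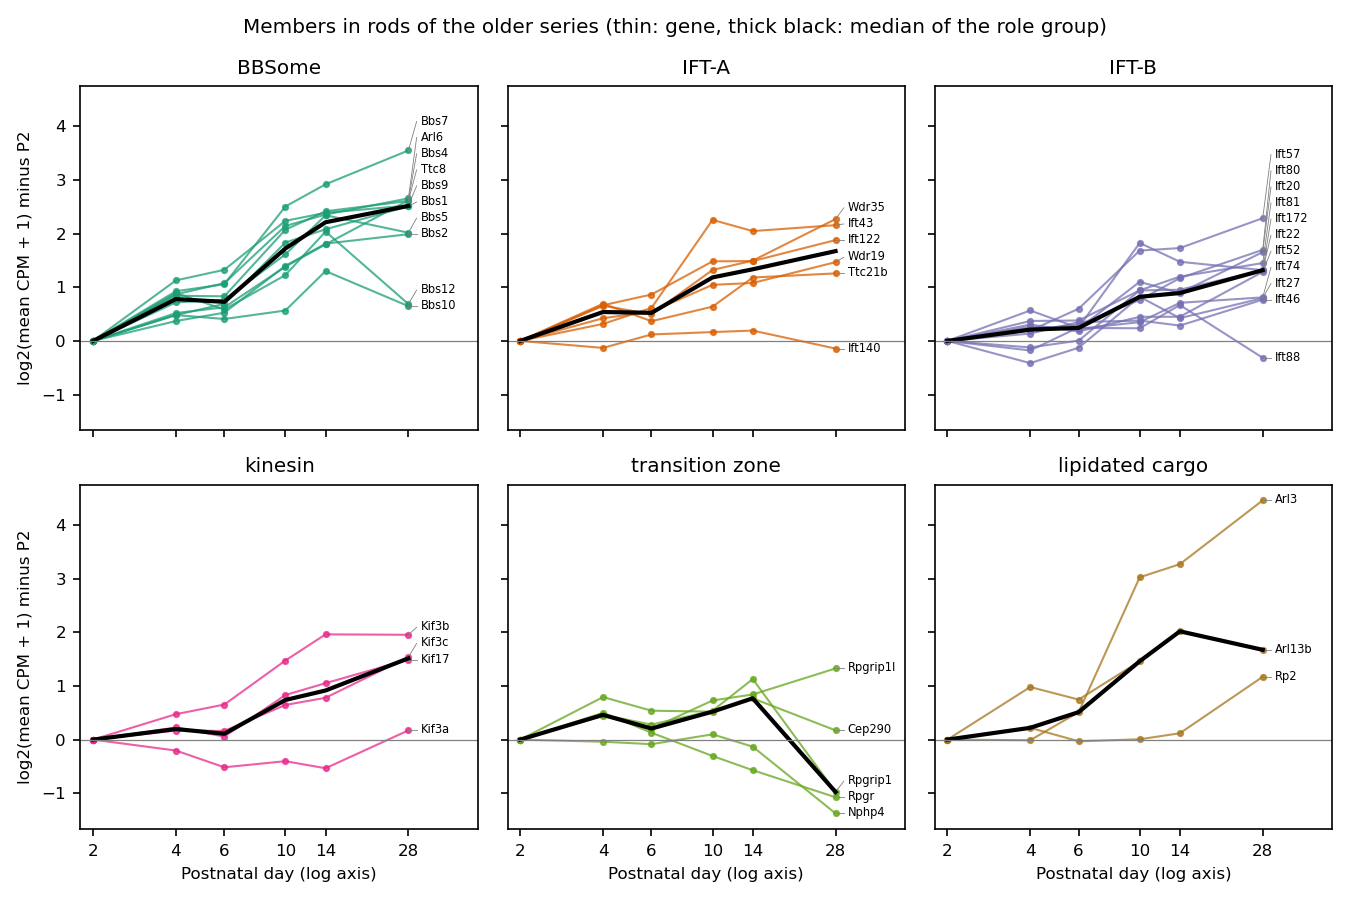
Each panel is a role; thin lines give log2(mean CPM + 1) of a member minus its P2 value against postnatal day (log axis) in the rods other than P5, and the thick line is the median of the role, all on the deposited scale. Arl3 rises most, most BBSome lines climb after P6, and Nphp4, Rpgr and Rpgrip1 end below their P2 level.

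The steps within this course were smaller. From P6 to P10, when outer segments start to grow, 8 of 39 members rose and 0 fell, beside 7.67% and 8.4% of all genes, with a median of 0.70 against -0.06. They were Arl3, Ift43, Ift22, Bbs7, Ttc8, Bbs1, Arl6 and Ift57, and Ift57, Arl6 and Ift43 each missed the threshold when some single library was left out. Leaving out single libraries, fewest members, 5, rose without P6 replicate 2, beside 5.74% of all genes. With libraries scaled to the same sum 3 rose (Arl3, Ift43 and Ift22), beside 3.41% of all genes that rose and 18.5% that fell. Ift22, a small GTPase of IFT-B, measured 44.5, 35.6 and 44.0 CPM at P6 and 135, 167, 137 and 60.8 at P10 (1.49 ± 0.31; limma, adjusted p = 0.00586), without overlap. From P10 to P28, 4 members rose (Arl3, Bbs4, Rp2 and Bbs7) and 2 fell (Nphp4 and Rpgrip1), beside 7.72% and 22.6% of all genes, with a median of 0.47 against -0.12. Without P10 replicate 2, 8 members rose, beside 9.45% of all genes. Under quantile normalisation Bbs4 (0.67) and Bbs7 (0.42) fell short of 2-fold, and the members' median was 0.13 against 0.06. With libraries scaled to the same sum 0 rose and 8 fell, beside 1.31% and 44.5% of all genes, with medians of -0.41 and -0.89. At an unadjusted p under 0.05, 0 members were lower at P10 than at P6 by limma.

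At P10 and at P14, 1 library each stood apart, P10 replicate 4 and P14 replicate 3. Cep290 measured 751 CPM in the first against 314 to 349.8 in the other P10 libraries, and 836 in the second against 286 and 422 in the other P14 libraries. Rpgrip1 was also highest there, at 3276 and 5125 CPM, and Arl3 lowest, at 113 and 136. P10 replicate 4 lay at least 1.5 times above every other P10 library for 5 of 39 members (12.8%; 13.3% of all genes) and at least as far below for 9 (23.1%; 13.5%). P14 replicate 3 did so for 7 of 39 (17.9%; 18.3%) and 8 of 39 (20.5%; 23.9%). The mitochondrial share of the CPM was 3.87% and 3.95% in the pair, against at least 11.8% and 7.92% in the others of their ages, and their rod marker sums, 15581 and 30606 CPM, were also the lowest. Their multiciliated marker sums, 137 and 195 CPM, lay above the 59.0 to 70.9 and 87.9 to 91.0 of the others, as did their cell cycle sums, 55.6 and 80.3 against at most 28.2 and 28.4. At P14 the cone marker sum was also highest there, at 683 against 417 and 464. The part of any of these in the members' values was not tested. Without both libraries the Arl3 slope was 5.35, and the Rpgrip1 slope became a call at -1.21 (limma, adjusted p = 0.00233). Without P10 replicate 4 alone, the change of Rpgrip1 from P10 to P28 was -0.93 (adjusted p = 0.00524), short of 2-fold, which left 1 member lower.

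P5 rods often lay outside the range of their neighbours in age. For 19 of 38 members (50%) all P5 libraries lay below all P4 and P6 libraries, as did 33.8% of all genes, and for 5 (13.2%; Arl6, Ift172, Ift27, Kif3b and Ttc8) they lay above them, as did 26.9%. Rpgrip1 was at 388 to 425 CPM at P5 against 1754 and 1439.8 at P4 and 1078, 1421 and 1725 at P6. Cep290 was at 213 to 235 against 538 and 508, and 355, 441 and 519. Marker sums of other cells stood apart too: bipolar cell markers were at 667 to 691 CPM at P5 against 122 to 128 at P4 and 205 to 296 at P6, cone markers at 91.7 to 99.4 against 417 to 547 and 419.5 to 586, and Müller glia markers at 199 to 222 against 819.7 to 923 and 652 to 1010.3. Their part was not tested. Age and series cannot be told apart for the P5 libraries, and CiPC would stand at 5.17% of the P2 mean of Rpgrip1 but 14.7% of the P5 mean.

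Other ciliary genes, on lists that hold no member, give the setting, and their counts are to be read against the shares of all genes given above for each comparison. Of 5 dynein-2 genes, the return motor, 3 rose at day 5 (Dync2h1 by 2.21, Dync2li1 by 1.12 and Wdr34 by 1.10) and 0 fell, 4 were higher in P5 rods than in MEF and 4 lower in CiPC than in P5 rods. Of 18 further transition zone genes, 6 rose at day 5, 2 were higher in CiPC than in MEF (Cc2d2a by 1.73 and Ahi1 by 1.31) and 10 were higher and 1 lower in P5 rods than in MEF. With age 4 of these 18 rose and 5 fell, near the shares of all genes (21.8% and 32.9%). Of 9 further IFT and BBSome genes under other names, not all of them subunits, 0 passed at day 5 or in CiPC against MEF. In P5 rods 4 were higher, and 5 rose with age, among them Mkks (2.46) and Bbip1 (1.95). Of 10 other cargo genes, 4 were higher in CiPC than in MEF (Tulp1 by 3.92, Tulp3 by 1.76), and 6 rose with age and 2 fell. Unc119 and Pde6d, the carriers that Arl3 empties, rose with age by 4.81 and 3.41, from 385 ± 33.2 CPM to 7666 ± 1149 and from 43.4 ± 4.44 to 404 ± 93.2 (SD; n = 2 at P2 and n = 4 at P28).

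Of 5 measured regulators of ciliary genes, 3 were higher in CiPC than in MEF: Foxj1, the master factor of motile cilia, by 2.70, Rfx2 by 2.38 and Rfx3 by 1.47, with 0 lower. All 5 were higher in P5 rods than in MEF, and with age 4 fell (Rfx3 by 2.41, Rfx1 by 2.01, Rfx7 by 1.89 and Foxj1 by 1.26). Foxj1 had means of 0.917 ± 0.290 CPM for MEF, 11.7 ± 3.50 for CiPC and 3.48 ± 0.221 for P5 rods (SD, n = 3 each). Of the genes for centrioles and basal bodies, 7 of 15 were higher and 1 lower in P5 rods than in MEF and 3 of 15 were higher in CiPC than in MEF, near the 16.5% of all genes. Of 8 genes of cilium disassembly, 4 were higher in CiPC than in P5 rods, and with age 2 rose and 4 fell. Nek2 has twin rows of equal values in the table and was counted once. All 10 cell cycle markers were higher in CiPC than in P5 rods, and all 10 fell with age.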

How the data were processed

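The deposited table holds 1 CPM signal per gene and library, made by the authors; kallisto is named in the submitters' processing notes, and neither its version, index and build nor the normalisation are given in the sources used here. The columns have unequal sums, and values are not whole multiples of a read's worth, so no count test was run and no sampling interval can be given. The labels give 80 ng of RNA per sample. On log2(CPM + 1), limma 3.58.1 (R 4.3.3, trended variance) was fitted in 9 comparisons to all genes with at least 1 CPM in at least 3 libraries of the fit, with Benjamini-Hochberg adjustment over all genes tested; calls need an adjusted p under 0.05 with at least 2-fold change. Fold changes on this scale understate changes of low genes. The fit was checked on simulated data. Alternatives varied the pseudocount, filter, scaling, variance prior, fold limit, replicate block, groups fitted and libraries, and the slope without P10 replicate 4 and P14 replicate 3, and over P2 to P14, and the scaling of all libraries to the same sum were added after seeing the data. Of the members, 11 were always described (Ift88, Ift140, Kif3a, Kif17, Bbs4, Rpgr, Rpgrip1, Cep290, Arl3, Arl13b and Rp2), with up to 6 of the largest calls per direction and comparison and members moving against the majority; Bbs5, Ift20, Ift57, Kif3b and, outside the members, genes named beyond the 2 with the largest change of their list were chosen after their values were seen. Of the genes the rule found, 2 are not reported here, nor is 1 listed rod marker; the fits ran over all genes. The members and lists were chosen with earlier results of these data known. By the coordinates of GENCODE M21, 10 members overlap another gene of the table, 2 of them on the same strand.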

Additional observations from a re-analysis of the deposited data

Results flagged for a closer look

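Within the P10 and P28 rods, which have 4 libraries each, 11 of the 78 gene-by-age groups held a library farther from the others than Dixon's 95% limit allows, or 14.1%. Chance flags about 1 in 20, and the same limit was passed in 9.95% of groups over all genes with at least 1 CPM in at least 3 of the 4 libraries. In P10 replicate 4, Cep290 stood at 750.6 CPM (others 314.3 to 349.8), Rpgr at 123.1 (38.23 to 52.13), Bbs5 at 192.2 (130.9 to 133) and Arl13b at 104.8 (75.73 to 80.19), all high. In P10 replicate 2, Wdr35 was high at 171.5 CPM. In P28 replicate 1, Arl13b was high at 161.9 CPM (70.54 to 81.13), Kif3b at 272.4 and Wdr19 at 132.8, while Bbs1 was low at 328.8 and Ift22 at 50.48 (96.21 to 105.4). In P28 replicate 2, Rpgrip1l was high at 91.67 CPM.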

How the results depend on the processing

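Of 3339 values of single members under alternatives, 3186 kept their call or lack of one, 82 lost a call and 63 gained one. Direction was compared only for members called in the main fit, and 8 values of such members reversed. These were Ift27 in P5 rods against MEF, at -0.089 with P4 and P6 rods instead, and 7 age slopes with all libraries scaled to the same sum, an alternative chosen after seeing the data: Ift27 (-0.465), Ift52 (-0.358), Ift81 (-0.059), Rp2 (-0.472), Rpgrip1l (-0.256), Ttc21b (-0.343) and Wdr19 (-0.125). That scaling gave 17 higher for CiPC against MEF, 0 lower against day 8, 0 higher against P5 rods, 1 lower in P5 rods against MEF, 3 higher at P10, 0 higher and 8 lower at P28, and 6 higher and 7 lower with age. It moved the median of all genes to 0.12 at day 5, 0.24 for CiPC against day 8, 0.26 against MEF, -0.16 against P5 rods, 0.36 for P5 rods against MEF, -0.48 at P10, -0.89 at P28 and -1.54 with age, and the share of calls that were higher from 47.9% to 60.5% for CiPC against day 8, 48.9% to 63.1% against MEF, 44.5% to 58.3% for P5 rods against MEF, 47.7% to 15.5% at P10, 25.4% to 2.87% at P28 and 39.9% to 7.57% with age. Without the fold limit the counts higher and lower were 28 and 5 at day 5, 3 and 12 at day 8, 15 and 11 for CiPC against day 8, 24 and 7 against MEF, 33 and 3 in P5 rods against MEF, 5 and 30 for CiPC against P5 rods, 21 and 0 at P10, and 23 and 3 at P28. Of all genes, the shares higher and lower were then 40.7% and 40.3% at day 5 and 25.6% and 23.9% at day 8. For CiPC they were 35.8% and 39.3% against day 8, 37.6% and 42% against MEF, and 42.3% and 43.4% against P5 rods. They were 43.4% and 47.4% in P5 rods against MEF, 13.9% and 16% at P10, and 23.1% and 32.7% at P28. Quantile normalisation gave 4 higher at day 5, 0 lower for CiPC against day 8, 1 lower in P5 rods and 4 falling with age; scaling by the median of ratios gave 2 higher for CiPC against P5 rods and 7 higher at P28. With P4 and P6 rods, 0 were lower in rods than in MEF and 0 higher in CiPC. Over P2 to P14 alone, 0 fell with age. The cause of these changes was not tested.

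Leaving out 1 library at a time gave, higher and lower, 8 to 9 and 0 to 0 at day 5, 0 and 0 at day 8, 6 to 7 and 0 to 1 for CiPC against day 8, 9 to 10 and 1 to 1 against MEF, 0 to 1 and 20 to 21 against P5 rods, 22 to 22 and 1 to 2 for P5 rods, 5 to 11 and 0 to 0 at P10, 3 to 8 and 1 to 2 at P28, and 26 to 28 and 2 to 3 with age. The members lower in P5 rods numbered 1 without MEF replicate 1, and those lower at P28 numbered 1 without P10 replicate 4. Quantile normalisation moved the median of all genes from -0.09 to 0.11 for P5 rods against MEF, -0.03 to -0.21 for CiPC against P5 rods, -0.12 to 0.06 for P28 against P10 and -0.30 to 0.08 with age, and the share of calls that were higher from 57.4% to 46.6%, 25.4% to 46.7% and 39.9% to 51.1% in the last 3. Median-of-ratios scaling moved it to 0.00 for P28 against P10 and to -0.17 with age. No called member reversed under quantile or median-of-ratios scaling.

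Same-numbered libraries did not deviate together throughout any comparison: over 25 pairs r ran from -0.443 to 0.353, and in 0 of 8 comparisons were all pairs over 0.1. Single pairs lay on both sides of 0, and pairing of only some libraries was not tested. A replicate block kept the calls of the 177 results followed, those of members called or always described. For P10 against P6 it called 10 members higher instead of 8, beside 11% of all genes instead of 7.67%. P10 replicate 4 has no P6 library of its number, so there the block takes it out of the comparison. The members' median was 0.645 with the block and also without P10 replicate 4, where 11.2% of all genes were higher. Depth is unknown, so Kif17 values near 0 have no counting error.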
